A study of Mus musculus with 6 samples.

Results

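The LY6 genes Ly6a, Ly6c1, Ly6c2, Ly6d, Ly6e and Ly6g were followed in leukemias of 6 mice, 3 per cohort, in RNA from cells sorted as KIT+Gr1+. These 6 genes were picked by name, as a family that includes the antigens of the Gr1 antibody used in the sort, from 41128 genes in the deposited table. Ly6e was 4.20-fold higher in Hoxa9/MTV than in Hoxa9/IRX3 leukemias, Ly6g was 10.1-fold higher in Hoxa9/IRX3 leukemias at a low level (at most 49 reads in a library), and Ly6c2 was among the 30 most abundant of the tested protein-coding genes in every mouse of both cohorts. Ly6a, Ly6c1 and Ly6d were at or near 0 in most mice.

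LY6 proteins are small, cysteine-rich proteins with a three-finger fold that are mostly held on the outer face of the plasma membrane by a glycosylphosphatidylinositol (GPI) anchor. Several of them are used as differentiation antigens of blood cells: Ly6A is the stem cell antigen Sca-1, Ly6C marks monocytes and many immature myeloid cells, Ly6G marks neutrophils, and Ly6D marks early B-lymphoid progenitors. The Gr1 antibody binds Ly6G and also binds Ly6C, and expression of several family members, Ly6a and Ly6e among them, is induced by interferon.

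Both cohorts carried retroviral Hoxa9 (FLAG-tagged) in KIT+ bone marrow (BM) cells of female CD45.1+ donors aged 6 to 12 weeks. In the Hoxa9/IRX3 cohort the same cells also received a MYC-tagged human IRX3 cDNA, and in the Hoxa9/MTV cohort they received MTV, the vector without an insert. The cells were transplanted with unfractionated CD45.2+ BM into lethally irradiated CD45.2+ C57BL/6 recipients, and the leukemias were collected when the mice became sick. BM was frozen, thawed and sorted for viable CD45.1+ KIT+Gr1+ cells, so the level of Gr1 on the cell surface was itself a criterion of the sort and every value below describes cells inside that gate. The retroviral promoter is not specific to a cell type, each leukemia arose in 1 mouse, and the recipients were females aged 6 to 12 weeks at transplantation. Mice were collected at disease onset, which differed in time between the cohorts, so IRX3 and the time since transplantation cannot be told apart. The age of each sampled mouse at collection is not given in the sources used here. The labels name the cells only as KIT+Gr1+ leukemia cells, with 1 library per mouse (mice 1.1, 1.2 and 1.4 against mice 3.2, 3.3 and 3.5).

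The library sizes used for scaling were 7979246 to 9803621 reads, as recovered from the steps between the deposited RPKM values (reads scaled to gene length and library size). Both ends of this range lie somewhat below the range of filtered reads per sample that the paper gives. Kit, the other antigen of the gate, had 3.12, 2.64 and 2.48 RPKM in the Hoxa9/MTV mice and 2.70, 1.63 and 2.14 RPKM in the Hoxa9/IRX3 mice. Neither Kit nor Ptprc (CD45) nor Itgam (Mac1) was called (adjusted p of 0.323, 0.483 and 0.622 by limma). Hoxa9, introduced in both cohorts, had 340, 363 and 174 RPKM against 242, 154 and 221 RPKM (adjusted p = 0.420). The row of mouse Irx3 was at 0 without the IRX3 vector, and with it the RPKM were 15.1 (mouse 3.2), 0.421 (mouse 3.3) and 0.148 (mouse 3.5); the introduced cDNA is human, so this row is not a measure of it. The test was a limma fit of log2(RPKM + 0.5) over 9522 protein-coding genes above 0.5 RPKM in at least 1 mouse, and a gene was called at an adjusted p under 0.05 and a change of at least 2-fold. Changes on this scale understate those of genes at a low level. In bulk RNA, a smaller share of cells that express a gene and less RNA per cell cannot be told apart.

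All 6 genes lie within 397 kb of mouse chromosome 15 (GRCm38). In order along the chromosome they are Ly6d (ENSMUSG00000034634, chr15:74762056-74763620, minus strand), Ly6e (ENSMUSG00000022587, chr15:74955051-74959905, plus strand), Ly6a (ENSMUSG00000075602, chr15:74994877-74998031, minus strand), Ly6c1 (ENSMUSG00000079018, chr15:75044018-75048830, minus strand), Ly6c2 (ENSMUSG00000022584, chr15:75108158-75111970, minus strand) and Ly6g (ENSMUSG00000022582, chr15:75155240-75159126, plus strand). The stretch holds 23 genes with a row in the table, of which 14 are protein coding, 9 exceeded 0.5 RPKM in at least 1 mouse, and 5 were at 0 in all mice.

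The coding sequences show how close some of these genes are, which bears on how well reads can be assigned to them. Ly6c1 and Ly6c2 were identical at 384 of 393 aligned coding bases (97.7%). Ly6a was 83.5% identical to Ly6c2, and Ly6g was 79.9% identical to Ly6c2, whereas Ly6e was 57.6% identical to Ly6c2 over 373 aligned bases. The first 90 coding bases, which encode the signal peptide and the start of the mature protein, are shown for the 4 closest genes, with capitals where a base differs from Ly6c2 (transcripts of GENCODE M21, on GRCm38, read in the direction of the gene).
Ly6c2: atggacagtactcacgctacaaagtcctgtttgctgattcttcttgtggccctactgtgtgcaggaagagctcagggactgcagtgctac
Ly6c1: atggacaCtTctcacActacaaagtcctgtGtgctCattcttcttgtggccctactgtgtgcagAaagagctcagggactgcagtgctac
Ly6g: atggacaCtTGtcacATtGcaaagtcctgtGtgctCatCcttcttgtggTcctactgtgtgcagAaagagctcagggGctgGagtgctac
Ly6a: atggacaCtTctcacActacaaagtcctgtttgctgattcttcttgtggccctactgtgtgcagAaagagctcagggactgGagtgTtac
Ly6c1 and Ly6a each differ from Ly6c2 at 6 of these bases and Ly6g at 13. The sequencing reads were 75 bases long. Of all 75-base windows of the Ly6c2 transcript, 21.9% also occurred without a mismatch in another gene's transcripts, and the value was 23.2% for Ly6c1, 2.38% for Ly6a and 0 for Ly6d, Ly6e and Ly6g. With up to 3 mismatches allowed, 92.0% of the Ly6c2 windows had a match in Ly6c1 but only 0.577% of the Ly6g windows had one in Ly6c2. Counts of Ly6c1 and Ly6c2 are therefore uncertain with respect to each other, whereas those of Ly6g and Ly6e do not share whole-read windows with other genes.

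Promoter sequence is shown for the genes of the Gr1 antigens and for Ly6a2, a further LY6 gene between Ly6c2 and Ly6g that is described with Ly6c2 below. Each sequence is the 250 bases before the RefSeq start (GRCm38.p6), in the direction of the gene, and capitals mark GAGGAAGT, a sequence of the kind bound by the myeloid factor PU.1, which was looked for after the letters had been seen. It was searched for on both strands and is present in 2.44% of 32851 RefSeq promoters of this length.
Ly6c2, chr15:75111972-75112221, minus strand: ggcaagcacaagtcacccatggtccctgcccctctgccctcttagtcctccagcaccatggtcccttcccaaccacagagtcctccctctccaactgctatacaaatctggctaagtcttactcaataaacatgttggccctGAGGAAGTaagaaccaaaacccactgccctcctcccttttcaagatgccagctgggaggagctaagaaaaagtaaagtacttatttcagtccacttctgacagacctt
Ly6c1, chr15:75048838-75049087, minus strand: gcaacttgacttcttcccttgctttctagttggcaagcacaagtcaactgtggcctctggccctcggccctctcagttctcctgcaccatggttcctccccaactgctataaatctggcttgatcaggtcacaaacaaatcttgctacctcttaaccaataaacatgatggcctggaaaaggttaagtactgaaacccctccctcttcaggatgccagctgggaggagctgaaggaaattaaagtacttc
Ly6g, chr15:75155011-75155260, plus strand: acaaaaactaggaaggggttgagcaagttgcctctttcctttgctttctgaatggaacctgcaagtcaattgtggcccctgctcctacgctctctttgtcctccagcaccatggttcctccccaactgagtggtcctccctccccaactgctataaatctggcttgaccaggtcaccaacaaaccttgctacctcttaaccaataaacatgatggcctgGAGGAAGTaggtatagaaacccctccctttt
Ly6a2, chr15:75135129-75135378, minus strand: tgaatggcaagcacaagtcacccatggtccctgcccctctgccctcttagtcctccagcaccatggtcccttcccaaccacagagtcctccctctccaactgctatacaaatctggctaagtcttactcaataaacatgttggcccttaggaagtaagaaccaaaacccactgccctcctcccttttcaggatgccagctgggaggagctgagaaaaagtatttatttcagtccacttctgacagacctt
The Ly6c2 and Ly6a2 promoters were identical at 241 of 245 aligned bases (98.4%). Ly6c2 was 75.9% identical to Ly6c1 and 76.9% identical to Ly6g over the aligned part. GAGGAAGT starts 108 bases before the start in Ly6c2 and 31 bases before it in Ly6g, and these letters are not in the Ly6c1 and Ly6a2 windows. A looser C/EBP pattern, TTNNGNAA, which 36.8% of all promoters hold, matched once in Ly6c2, once in Ly6a2 and at 2 places in Ly6g. ACANNTGT, a palindrome of the type bound by Iroquois proteins, was found in none of the 4 windows and in 6.31% of all promoters, and the interferon patterns GAAANNGAA (7.13% of all promoters) and TTCNNNGAA (7.02%) and the HOX and PBX pattern TGATTNAT (2.82%) were likewise found in none of the 4. These matches describe letters only, and no binding was measured here.

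**Figure D1:**
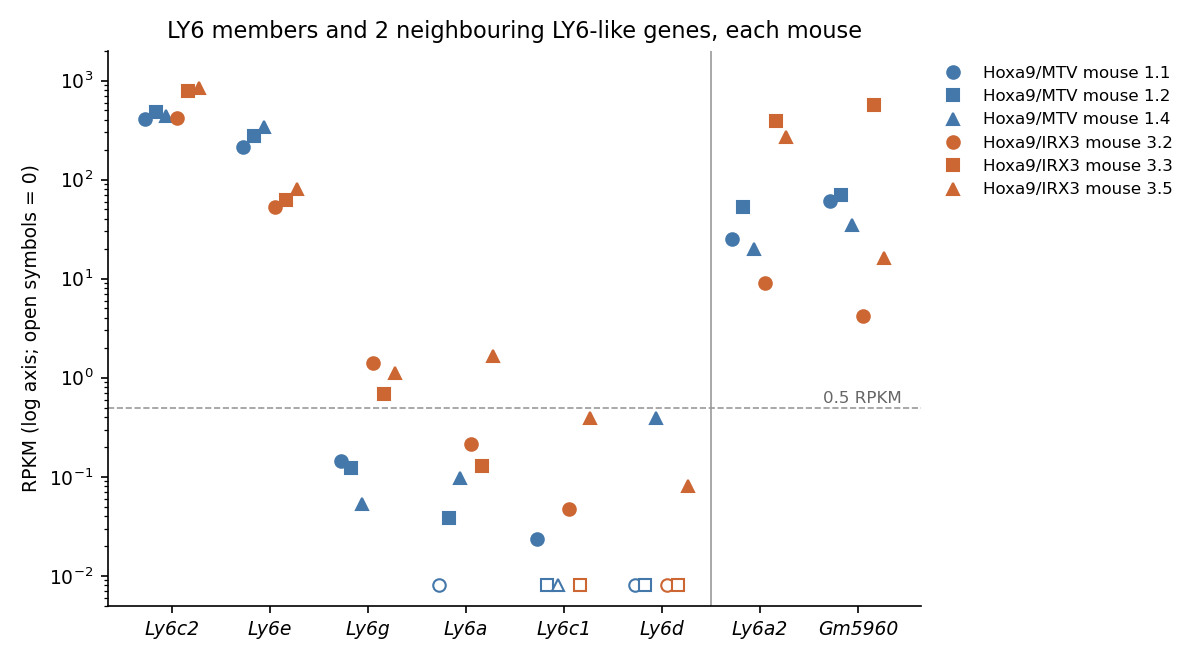
RPKM (log axis, open symbols at 0) of the 6 LY6 genes and of the neighbouring Ly6a2 and Gm5960 in each of the 3 Hoxa9/MTV mice (blue) and 3 Hoxa9/IRX3 mice (orange), with the limit of 0.5 RPKM as a dashed line. Ly6c2 is high in every mouse, the cohorts are separate for Ly6e and Ly6g in opposite directions, and Ly6a2 and Gm5960 differ widely among the Hoxa9/IRX3 mice.

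The Gr1 antigens were read first. Ly6g had 5, 4 and 2 reads in Hoxa9/MTV mice 1.1, 1.2 and 1.4, or 0.145, 0.124 and 0.0532 RPKM. In Hoxa9/IRX3 mice 3.2, 3.3 and 3.5 it had 49, 26 and 35 reads, or 1.42, 0.682 and 1.13 RPKM. Every Hoxa9/IRX3 mouse was above every Hoxa9/MTV mouse, which was the case in this direction for 12.2% of all tested genes. Mean Ly6g RPKM were 0.108 ± 0.0483 (SD, n = 3) without IRX3 and 1.08 ± 0.373 (SD, n = 3) with it, and the ratio of the pooled reads, 110 to 11, scaled to library size, was 10.1 (exact 95% interval 5.41 to 20.8, counting error only). The log2 change was 1.35 (SE 0.20, adjusted p = 0.0205 by limma with Benjamini-Hochberg adjustment), so Ly6g was called higher, as were 1.1% of all tested genes. Ly6g is 1 of 711 tested genes that exceeded 0.5 RPKM in Hoxa9/IRX3 mice alone, so it entered the test only through the cohort in which it was high. The call was lost with a pseudocount of 1 (log2 change 0.89), with limma voom on the recovered reads (adjusted p = 0.0596) and without each Hoxa9/MTV mouse in turn (adjusted p 0.0817 to 0.102).

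Even at its highest, Ly6g was a weakly detected gene. Ranked by RPKM per exon length (union of annotated exons) among the 9522 tested genes, it stood at 9101 to 9297 in the Hoxa9/MTV mice and at 6630 to 8244 in the Hoxa9/IRX3 mice. Ly6c2, by contrast, stood at 15 to 30 in all 6 mice.

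Ly6c2, which encodes a Ly6C antigen, had 13916, 15155 and 16225 reads in the Hoxa9/MTV mice, or 413, 479 and 440 RPKM. In the Hoxa9/IRX3 mice it had 13995, 29519 and 25675 reads, or 414, 790 and 844 RPKM. Mouse 3.2 lay at the level of the Hoxa9/MTV mice and mice 3.3 and 3.5 lay above all of them, so the cohorts overlapped. The means were 444 ± 33.1 and 683 ± 234 RPKM (SD, n = 3 each), and the log2 change of 0.56 (SE 0.28, adjusted p = 0.278 by limma) was not called. Without mouse 3.2 the change was 0.88 (adjusted p = 0.0291), which is still under 2-fold.

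Ly6c1, the near copy of Ly6c2, had 1, 0 and 0 reads in the Hoxa9/MTV mice and 2, 0 and 15 reads in the Hoxa9/IRX3 mice. Its highest value, 0.391 RPKM in mouse 3.5, was under the limit, and it was not tested. The ratio of pooled Ly6c1 reads was 17.1 (exact 95% interval 2.68 to 715, counting error only), with a single read in Hoxa9/MTV leukemias. Of the 17 Hoxa9/IRX3 reads, 15 were in mouse 3.5 and the cohorts overlapped, and the interval leaves out this spread between mice. Of the reads of Ly6c1, Ly6c2 and Ly6g together, 99.6% to 99.99% were assigned to Ly6c2 in each of the 6 mice. Transcripts of the Gr1 antigens in this gate were thus nearly all assigned to Ly6c2, in both cohorts, within the limit that Ly6c1 and Ly6c2 share windows.

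Within each library the balance of the Gr1 antigens can be read without reference to library size. There were 0.359, 0.264 and 0.123 Ly6g reads per 1000 Ly6c2 reads in mice 1.1, 1.2 and 1.4, and 3.50, 0.881 and 1.36 in mice 3.2, 3.3 and 3.5. The lowest Hoxa9/IRX3 value was above the highest Hoxa9/MTV value. Mouse 3.2 had the most Ly6g reads and the fewest Ly6c2 reads of its cohort. An exact permutation test over 3 against 3 mice cannot give a two-sided p below 0.1, so no p is given for this ratio.

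Between Ly6c1 and Ly6g lie 2 further LY6-like genes that the filter on protein-coding genes left out. The gene that RefSeq names Ly6a2 and lists as protein coding (ENSMUSG00000102051, chr15:75131377-75135128, minus strand) is carried by GENCODE M21 as a transcribed pseudogene. It had 832, 1656 and 729 reads in the Hoxa9/MTV mice and 298, 14492 and 8020 reads in the Hoxa9/IRX3 mice, or 25.1, 53.1 and 20.1 against 8.96, 394 and 268 RPKM. Mice 3.3 and 3.5 were far above the Hoxa9/MTV mice and mouse 3.2 was below all of them. Relative to Ly6c2 it had 5.98, 10.9 and 4.49 reads per 100 Ly6c2 reads in Hoxa9/MTV and 2.13, 49.1 and 31.2 in Hoxa9/IRX3 leukemias, so it did not scale with Ly6c2 alone.

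The pseudogene Gm5960 (ENSMUSG00000099775, chr15:75071112-75074638, plus strand) had 1895, 2043 and 1176 reads in the Hoxa9/MTV mice and 131, 19436 and 455 reads in the Hoxa9/IRX3 mice. Mouse 3.3 alone was above the Hoxa9/MTV mice, at 65.8 reads of Gm5960 per 100 Ly6c2 reads. Mice 3.2 and 3.5 were below all Hoxa9/MTV mice, at 0.936 and 1.77 against 13.6, 13.5 and 7.25 reads per 100 Ly6c2 reads. In a fit over all gene types, neither Ly6a2 (log2 change 1.72, SE 1.43, adjusted p = 0.533 by limma) nor Gm5960 (log2 change -0.59, SE 1.69, adjusted p = 0.864) was called. No 75-base window of either transcript occurred without a mismatch in any of the 6 LY6 genes, and with up to 3 mismatches 7.01% of the Ly6a2 windows and 0 of the Gm5960 windows matched Ly6c2. Together, Ly6c2, Ly6a2 and Gm5960 had 1874 to 2270 RPM (reads scaled to library size only) in the Hoxa9/MTV mice and 1628, 6472 and 4280 RPM in mice 3.2, 3.3 and 3.5.

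**Figure D2:**
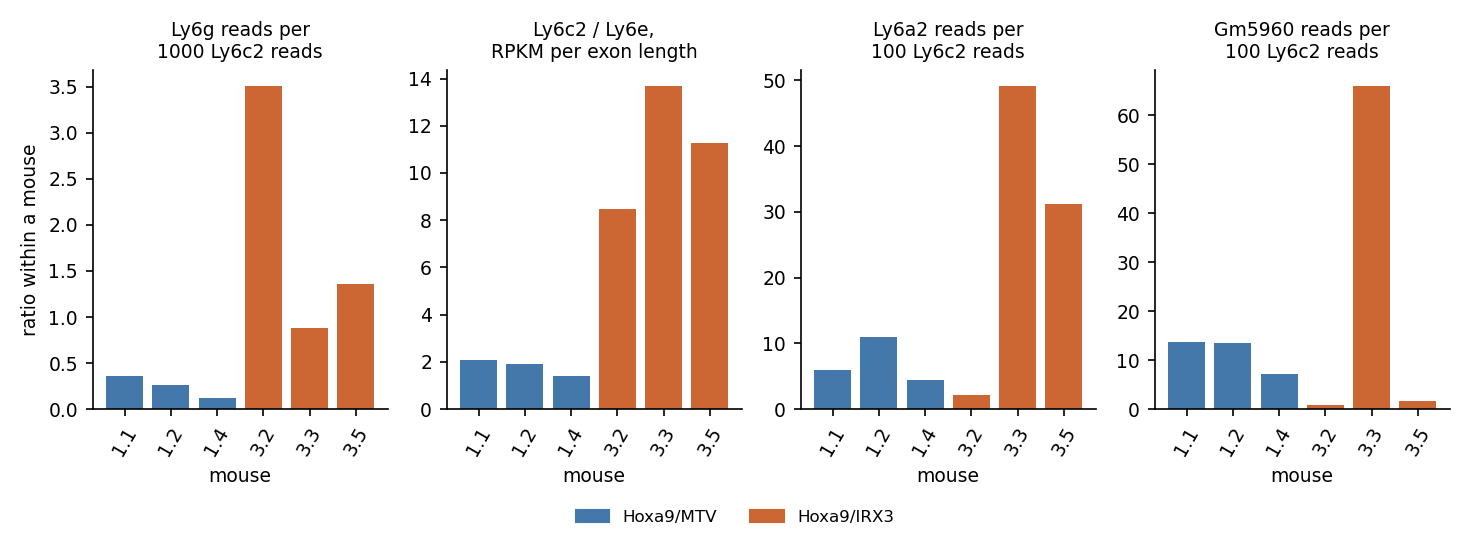
Bars give 4 ratios within each mouse, from left to right Ly6g reads per 1000 Ly6c2 reads, Ly6c2 over Ly6e in RPKM per exon length, Ly6a2 reads per 100 Ly6c2 reads and Gm5960 reads per 100 Ly6c2 reads, for Hoxa9/MTV mice (blue) and Hoxa9/IRX3 mice (orange). The first 2 ratios separate the cohorts in every mouse, whereas the last 2 are highest in mice 3.3 and 3.5 or in mouse 3.3 alone. The remaining Hoxa9/IRX3 mice lie below all Hoxa9/MTV mice in the last 2 ratios.

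Ly6e encodes a broadly expressed, interferon-inducible member of the family, also known as thymic shared antigen-1 or Sca-2. It had 9207, 11056 and 15880 reads in mice 1.1, 1.2 and 1.4, or 214, 274 and 338 RPKM, and 2285, 2983 and 3145 reads in mice 3.2, 3.3 and 3.5, or 53.1, 62.7 and 81.2 RPKM. The lowest Hoxa9/MTV mouse was above the highest Hoxa9/IRX3 mouse, a separation in this direction that 21.6% of all tested genes showed. The means were 276 ± 61.9 and 65.7 ± 14.3 RPKM (SD, n = 3 each), and Ly6e fell by 2.06 on the log2 scale in Hoxa9/IRX3 leukemias (SE 0.23, adjusted p = 0.00893 by limma). It was called lower, as were 2.03% of all tested genes. Leaving out 1 mouse at a time gave changes of -2.23 to -1.90, and the call was lost without mouse 1.2 (adjusted p = 0.0611) or mouse 1.4 (adjusted p = 0.0549).

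The ratio of the 2 abundant members separated the cohorts. Per exon length, Ly6c2 exceeded Ly6e by 2.09-, 1.89- and 1.41-fold in the Hoxa9/MTV mice and by 8.46-, 13.7- and 11.3-fold in the Hoxa9/IRX3 mice. Exon length is the union of all annotated exons, 2740 bases for Ly6c2 and 3784 for Ly6e. The transcripts used for the coding sequences are shorter, at 822 and 2281 bases. The size of these folds depends on that choice, whereas the separation of the cohorts does not. Ly6e took 39.8% to 49.4% of all reads of the 6 members in Hoxa9/MTV leukemias and 9.17% to 14.0% in Hoxa9/IRX3 leukemias. By rank among tested genes, Ly6e moved from 39 to 67 in the Hoxa9/MTV mice to 296 to 531 in the Hoxa9/IRX3 mice. The 6 members together had 2615, 3156 and 3320 RPM in Hoxa9/MTV and 1844, 3318 and 3624 in Hoxa9/IRX3 leukemias, and these sums overlapped.

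Ly6a, which encodes Sca-1, had 0, 1 and 3 reads in the Hoxa9/MTV mice and 6, 4 and 42 reads in the Hoxa9/IRX3 mice. The cohorts did not overlap, as was so in this direction for 12.2% of all tested genes. Most of the reads were in mouse 3.5, whose 1.67 RPKM alone carried Ly6a over the limit of 0.5 RPKM. The log2 change of 0.87 (SE 0.46, adjusted p = 0.300 by limma) was not called and fell to 0.30 without mouse 3.5. The ratio of pooled reads was 13.1 (exact 95% interval 4.82 to 49.8, counting error only), and without mouse 3.5 it was 3.59 (1.04 to 15.7). Mouse 3.5 also had 15 of the 17 Ly6c1 reads of its cohort.

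Ly6d had 0, 0 and 6 reads in the Hoxa9/MTV mice and 0, 0 and 1 reads in the Hoxa9/IRX3 mice, with a highest value of 0.396 RPKM, and it was not tested. A count of 0 allows up to 3 reads, which corresponds to 0.196 to 0.231 RPKM for Ly6d in the 4 libraries without a read. The ratio of pooled reads, Hoxa9/IRX3 over Hoxa9/MTV, was 0.168 (exact 95% interval 0.00365 to 1.38), so a difference was not detectable for Ly6d at this depth.

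Compared per exon length, the order of the 6 members was similar in both cohorts at the top and uncertain at the bottom. In Hoxa9/MTV leukemias the means were 617 ± 46.0 for Ly6c2, 354 ± 79.4 for Ly6e, 0.444 ± 0.199 for Ly6g, 0.278 ± 0.481 for Ly6d, 0.119 ± 0.130 for Ly6a and 0.0225 ± 0.0389 for Ly6c1 (RPKM per exon length, SD, n = 3). In Hoxa9/IRX3 leukemias they were 950 ± 326 for Ly6c2, 84.2 ± 18.3 for Ly6e, 4.45 ± 1.54 for Ly6g, 1.76 ± 2.26 for Ly6a, 0.419 ± 0.612 for Ly6c1 and 0.0561 ± 0.0973 for Ly6d. Ly6c2 was above Ly6e, and Ly6e above Ly6g, in every mouse. Ly6g was above Ly6a in every Hoxa9/IRX3 mouse, and the other neighbours in the lower part of either order differed by less than the larger of their SDs.

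**Figure D3:**
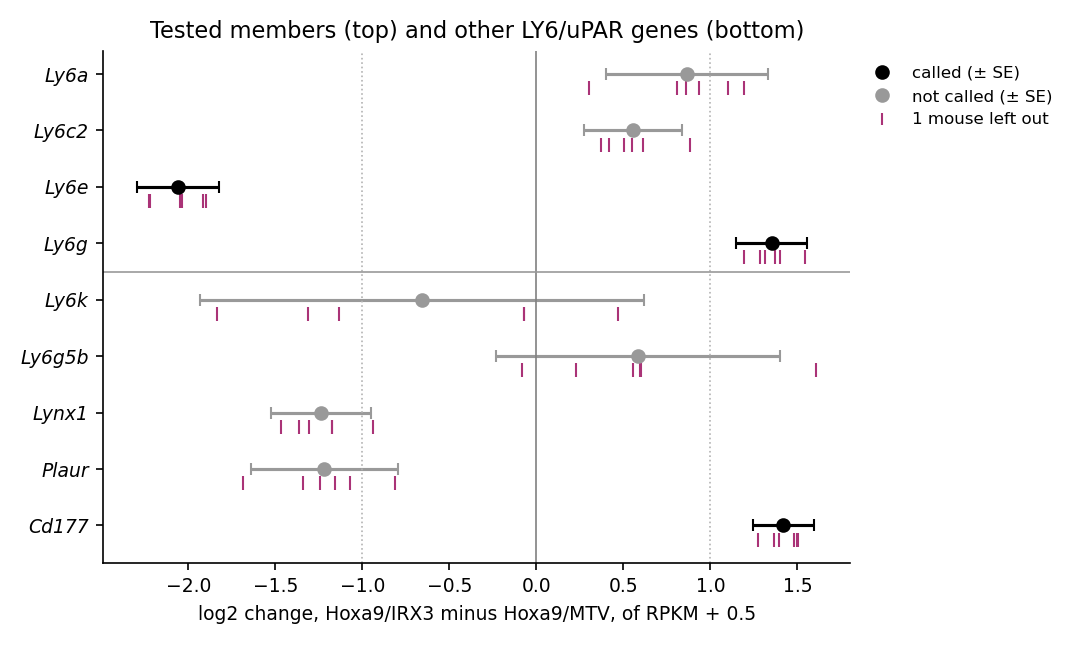
Log2 change of RPKM + 0.5 (Hoxa9/IRX3 minus Hoxa9/MTV, points with SE bars) of the 4 tested members above the line and the 5 tested other LY6/uPAR genes below it, black where called and grey where not, with the values from fits that leave out 1 mouse as ticks and 2-fold limits dotted. Ly6e at -2.06 is the only called gene to the left of 0, and Ly6g and Cd177 are the 2 called genes to the right of 0.

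In all, 4 of the 6 members were tested, 1 was called higher and 1 was called lower. Since Ly6g and Ly6a passed the filter through Hoxa9/IRX3 mice alone, the count of higher members carries no weight beyond the values of each gene. The family beyond these genes was described by a list of 46 other genes with a LY6/uPAR domain, of which 38 had a row in the table, 23 of those were at 0 in all mice and 5 were tested. Of the 5, Cd177 was called higher and none was called lower. By unadjusted p under 0.05, 1 of the 5 was higher and 2 were lower, where 8.34% of all tested genes were higher and 16% lower by that criterion. The limma voom fit called 1 of the 5 higher and 0 lower, and it called 1.5% of all tested genes higher and 2.33% lower. With 5 genes, these counts single out nothing about the relatives.

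Cd177, a GPI-anchored antigen of neutrophils with LY6/uPAR domains, had 14.3, 16.6 and 13.7 RPKM in the Hoxa9/MTV mice and 35.9, 37.2 and 49.5 RPKM in the Hoxa9/IRX3 mice. The cohorts did not overlap, which held in this direction for 12.2% of all tested genes. Its log2 change was 1.42 (SE 0.17, adjusted p = 0.0107 by limma). Cd177 was called in 3 of the 6 fits that left out 1 mouse, and was lost without each Hoxa9/MTV mouse in turn (adjusted p 0.0578 to 0.0712).

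The other 4 tested relatives were not called. Lynx1, which encodes a modulator of nicotinic receptors, had 0.479, 0.718 and 1.53 RPKM against 0.0217, 0.177 and 0.0241 RPKM (log2 change -1.24, adjusted p = 0.0621). Plaur, the urokinase receptor, had 3.41, 2.91 and 4.44 against 2.81, 0.488 and 1.10 RPKM (log2 change -1.22, adjusted p = 0.146). Both had separate cohorts, with the Hoxa9/MTV mice higher, as did 21.6% of all tested genes. Ly6g5b varied within the Hoxa9/IRX3 cohort, at 29.6, 3.93 and 45.6 RPKM against a mean of 11.7 ± 0.436 RPKM (SD, n = 3) in Hoxa9/MTV leukemias (adjusted p = 0.692). Ly6k, which lies between Ly6d and Ly6e and overlaps an antisense gene, was high in 1 mouse of each cohort, with 8.04 RPKM in mouse 1.4 and 5.27 RPKM in mouse 3.5 against at most 0.425 RPKM in the other 4 mice.

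Marker genes of cell types that the gate could hold were counted beside these values. Over all tested genes, 1.1% were called higher and 2.03% lower. Among 12 neutrophil markers, all tested, 1 was called higher (Retnlg, with 1.32, 1.08 and 1.09 against 3.82, 3.88 and 8.75 RPKM) and none lower, with a median log2 change of 0.47 against -0.06 over all tested genes. By unadjusted p under 0.05 (limma), 3 of the 12 were higher and 0 were lower, against 8.34% and 16% of all tested genes. The Retnlg call was lost with limma voom (adjusted p = 0.0902), by the study's criterion (0.0574), without the filter (0.0636), with all gene types (0.0503) and without each Hoxa9/MTV mouse in turn (0.105 to 0.131). Their summed level was 1551 to 2260.4 RPKM in the Hoxa9/MTV libraries and 1209 to 3515 RPKM in Hoxa9/IRX3 leukemias, and no neutrophil marker was at 0. The abundant Ngp, a secondary granule gene, had 903, 1446 and 957 against 1199, 543 and 1479.6 RPKM and was not called. S100a8 had 353, 438 and 320 against 489, 405 and 1367 RPKM and was not called (adjusted p = 0.311 by limma). Of 6 promyelocyte markers, all tested, 1 was called higher and 0 lower, with a median log2 change of 0.70. By unadjusted p under 0.05 (limma), 4 of the 6 were higher and 1 was lower, against 8.34% and 16% of all tested genes. The called gene was Elane, neutrophil elastase, with 715, 1053 and 614 against 3324, 3332 and 2237 RPKM. Mpo had 625, 752 and 482 against 1135, 807 and 1060 RPKM and was not called (adjusted p = 0.115 by limma). The Elane call held with limma voom. In limma fits it was lost without the filter (adjusted p = 0.107) and without mouse 1.1 (0.0739) or mouse 1.4 (0.0812). The summed promyelocyte level was 1636 to 2418 RPKM in the Hoxa9/MTV libraries and 4212 to 5735 RPKM in Hoxa9/IRX3 leukemias, the direction of Ly6g. The part of granulocytic marker levels in the Ly6g result was not tested.

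The called monocyte and macrophage markers were all lower in Hoxa9/IRX3 leukemias, as Ly6e was. Of 12 listed, 10 were tested, with a median log2 change of -1.65. Of these 10, 0 were called higher and 4 lower (Ms4a6c, Fn1, Klf4 and Ccr2), against 1.1% and 2.03% of all tested genes. The 12 markers together had 105 to 139 RPKM in the Hoxa9/MTV libraries and 27.7 to 90.7 RPKM in Hoxa9/IRX3 leukemias, and none was at 0 in all mice. Ccr2, the chemokine receptor of Ly6C-high monocytes, had 22.3, 18.7 and 26.3 against 4.99, 3.69 and 6.48 RPKM, whereas Ly6c2 was not lower in any Hoxa9/IRX3 mouse than in the lowest Hoxa9/MTV mouse. Irf8, a regulator of monocyte development, had 39.6, 27.0 and 25.5 against 2.61, 63.1 and 2.98 RPKM, so its highest value was in mouse 3.3, the mouse with the most Ly6a2 and Gm5960 reads. Of 8 stem and progenitor markers, 4 were tested and 3 were called lower (Cd34, Gata2 and Flt3), and their summed level was 21.5 to 27.7 RPKM against 2.14 to 5.76 RPKM. Limma voom called 1 of these 3, losing Cd34 (adjusted p = 0.0624) and Gata2 (adjusted p = 0.0540), and both were also lost without any 1 of the Hoxa9/MTV mice. In limma fits, Cd34 was also lost with a pseudocount of 0.1 (adjusted p = 0.0553) and without the filter (adjusted p = 0.0503). Flt3 was lost without mouse 1.1 or 1.4 and, with a pseudocount of 1, fell short of a 2-fold change (log2 change -0.84). Of the 4 monocyte and macrophage calls, limma voom kept 3 and lost Klf4 (adjusted p = 0.0616). The Klf4 call was also lost with a pseudocount of 0.1, without the filter and with all gene types. It held in only 1 of the 6 fits that left out 1 mouse. Ccr2 was lost in the limma fits without mouse 1.1 (adjusted p = 0.0530) or mouse 1.4 (adjusted p = 0.0549). The part of these marker levels in the Ly6e result was not tested.

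B lineage markers bear on Ly6d, and T, NK and endothelial markers on Ly6a and Ly6c1, which such cells can express. Of 10 B lineage markers 3 were tested, and Pax5 was at 0 in every mouse. Of the 3, 1 was called lower (Cd79b), as were 2.03% of all tested genes. The other 2 tested markers were higher in every Hoxa9/IRX3 mouse than in any Hoxa9/MTV mouse, as were 12.2% of all tested genes. The median log2 change of the 3 was 1.08. The Cd79b call was lost with a pseudocount of 0.1, without the filter, with all gene types, with median-of-ratios scaling and in 5 of 6 cases when a single mouse was omitted. The summed B lineage level was 6.50 to 7.38 RPKM in the Hoxa9/MTV libraries and 2.06 to 43.4 RPKM in Hoxa9/IRX3 leukemias. Igll1, part of the surrogate light chain, had 0.102, 0.0726 and 0.0312 against 1.19, 9.11 and 38.4 RPKM, and its log2 change of 3.92 was not called (adjusted p = 0.0776 by limma). Its highest value was in mouse 3.5, where Ly6d had 1 read. Of 10 T and NK markers, Cd3d and Ncr1 were at 0 in all mice and only Nkg7 was tested. Nkg7 had 481.98 RPKM in mouse 3.5 and 14.9 to 100.2 RPKM in the other 5 mice. All 10 T and NK markers together had at most 482.09 RPKM in any Hoxa9/IRX3 mouse. Nearly all of their summed level in mouse 3.5 was therefore Nkg7. The part of T and NK marker levels in the Ly6a and Ly6c1 values was not tested. The 6 endothelial markers summed to at most 0.0412 RPKM in any mouse.

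**Figure D4:**
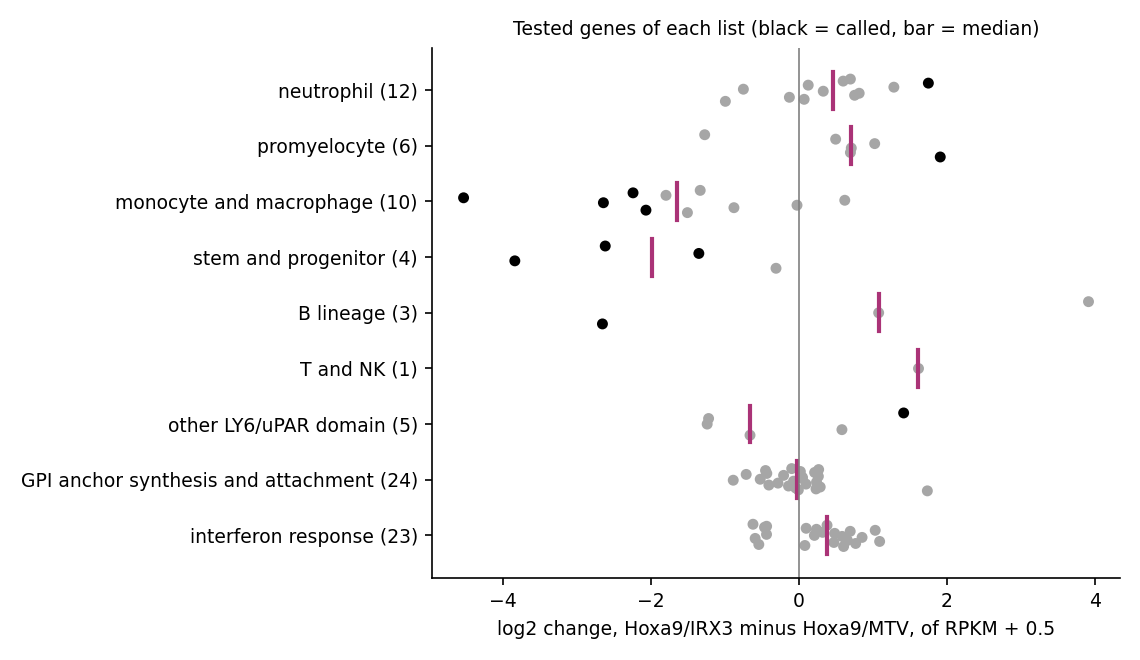
Log2 change of RPKM + 0.5 (Hoxa9/IRX3 minus Hoxa9/MTV) of each tested gene of the marker and pathway lists, black where called and grey where not, with the median of each list as a bar and the number of tested genes in brackets. Monocyte and progenitor medians lie at -1.65 and -1.98, and no gene of the GPI anchor and interferon lists is called.

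The enzymes that make and attach the GPI anchor of LY6 proteins did not include a called gene. Of 31 listed, 24 were tested, with a median log2 change of -0.02, and limma voom also called 0. By unadjusted p under 0.05, 1 of the 24 was higher and 5 were lower, against the 8.34% and 16% of all tested genes given above, and nothing particular to the list is read from these counts. Dpm2, a subunit of the enzyme that makes the mannose donor, had 16.4 ± 1.86 RPKM in the Hoxa9/MTV libraries and 12.1 ± 1.82 RPKM in Hoxa9/IRX3 leukemias (mean and SD, n = 3 each), and its log2 change of -0.43 was not called (adjusted p = 0.168 by limma). Interferon response genes, which share inducibility with Ly6e and Ly6a, likewise included no called gene among 23 tested of 26 listed. Their median log2 change was 0.38, and limma voom called 0. By unadjusted p under 0.05, 5 of the 23 were higher and 3 were lower, beside the same 8.34% and 16% of all tested genes. The part of interferon response levels in the Ly6e and Ly6a values was not tested. Bst2, another GPI-anchored protein induced by interferon, had 7.98, 10.7 and 9.12 against 8.92, 15.2 and 9.08 RPKM (adjusted p = 0.607). Ifngr1, a chain of the interferon gamma receptor, had 38.1, 50.9 and 44.9 against 49.0, 65.4 and 60.7 RPKM (adjusted p = 0.245).

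The genes with the most similar pattern over the 6 mice were found by the root mean square difference of log2(RPKM + 0.5), each gene centred on its own mean. For Ly6e these were Cyp4f18 (0.228), Cd244 (0.243) and Pirb (0.247), against a median of 1.06 over all tested genes. Pirb, an inhibitory receptor of myeloid cells, had 2.47, 3.34 and 4.68 against 0.352, 0.182 and 0.321 RPKM. For Ly6g they were Phospho1 (0.168), Ifi27 (0.182) and Tmc7 (0.194), against a median of 0.774. Phospho1 had 0.385, 0.205 and 0.149 against 1.27, 0.881 and 1.34 RPKM. Ifi27, an interferon-induced gene outside the fixed interferon list, had 1.39, 1.54 and 0.909 against 5.41, 3.72 and 3.596 RPKM and was called higher (log2 change 1.41, adjusted p = 0.0178 by limma), a call lost without each Hoxa9/MTV mouse in turn. For Ly6c2 they were Jade1 (0.0807), Zfp820 (0.0832) and Sec62 (0.103), against a median of 0.527. Zfp820 had only 0.0196, 0.0333 and 0.0251 against 0.0586, 0.452 and 0.547 RPKM. At that level the added 0.5 shrinks differences, so its likeness to the abundant Ly6c2 depends on the scale. For Ly6a they were Timp2 (0.116), Adora2a (0.122) and Igf1 (0.139), against a median of 0.798, and each of these 3 was highest in mouse 3.5. Likeness is given as a description over 6 libraries that also share the cohort difference.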

How the data were processed

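RNA from 6 mice was sequenced by the authors as strand-specific polyA libraries, paired-end 75 bases, aligned with Bowtie2 2.2.1 to GRCm38 and filtered with SAMtools 0.1.19 for primary alignments of Phred score 20 or more. The deposited values are RPKM per Ensembl gene (release 76), computed by the authors over the whole gene span. The aligner was not splice-aware, so reads over exon junctions may be lost, and levels were compared between genes only after rescaling to exon length. Exon length was the union of all annotated exons of a gene, so levels and ranks compared between genes depend on the annotation. Reads were recovered from the RPKM steps: all 6 LY6 members, and 65.0% of tested genes, gave whole reads within 0.01. Precision rests on 7979246 to 9803621 recovered reads per library, and intervals cover counting error only.

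Protein-coding genes (GENCODE M21) above 0.5 RPKM in at least 1 mouse were fitted with limma 3.58.1 (R 4.3.3, eBayes with trend) on log2(RPKM + 0.5), with Benjamini-Hochberg adjustment over 9522 genes. A called gene had an adjusted p under 0.05 and a change of at least 2-fold. The fit was tested on simulated data. P-values measure the spread between mice, 3 per cohort. Sequences came from GENCODE M21 transcripts and RefSeq promoters (GRCm38.p6), which matched 3 of the 6 members and Ly6a2, and were aligned with Biopython 1.88. Named genes were the members, every tested relative with a LY6/uPAR domain, up to 4 called and the 2 most abundant genes of each list, Kit, Ptprc, Itgam, Hoxa9 and Irx3, the 3 genes most like each varying member, and genes inside the chromosome stretch. Members and lists were chosen with earlier results of these data known. Alternatives were other pseudocounts, filters, gene types, scaling, weights and tests, and leaving out each mouse.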

Additional observations from a re-analysis of the deposited data

How the results depend on the processing

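Over 47 named genes and 15 alternatives, 614 values kept their direction and their side of the threshold, 70 were no longer called, 7 became called and 12 changed sign. The call of Ly6e held with every pseudocount, filter, scaling, weighting and test tried and was lost only without mouse 1.2 or 1.4. The number of members called higher, 1 in the report, was 0 with a pseudocount of 1 and 0 with limma voom, and 0 to 1 when a mouse was left out. The number called lower, 1, was 0 to 1 when a mouse was left out. Over all tested genes, 105 were called higher. That count was 66 with a pseudocount of 1, 66 without a filter on low values, 215 by the study's criterion (unadjusted p and ratio of means) and 24 to 152 when a mouse was left out, the 3 lowest without a Hoxa9/MTV mouse (28, 25 and 24 without mice 1.1, 1.2 and 1.4). The count called lower, 193, was 109 without the filter, 449 by the study's criterion and 37 to 257 when a mouse was left out (46, 41 and 37 without mice 1.1, 1.2 and 1.4). The cause of these shifts was not tested. Values that changed sign belonged to genes that were not called. Cd14, at -0.023, was 0.0175 with a pseudocount of 1, 0.063 with median-of-ratios scaling, 0.81 by the study's criterion, and 0.25, 0.98 and 0.023 without mice 1.4, 3.3 and 3.5 (lowest -1.08). Leaving out a mouse also gave -0.028 for Bst2 and 0.17 for Itgam without mouse 3.3, -0.082 for Ly6g5b without mouse 3.5, 0.47 for Ly6k without mouse 1.4, and 0.086 and 0.31 for Ngp without mice 1.2 and 3.3.

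No paired analysis was possible because the cohorts share no mouse numbers. With 2 to 5 reads of Ly6g per Hoxa9/MTV library, its fold change depends on few reads, and Ly6c1 and Ly6d were below the limit for testing.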
